A study of Homo sapiens with 6 samples.

Results

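The 10 genes described here belong to ferroptosis defenses that work beside the peroxidase GPX4: AIFM2, NQO1, COQ2, DHODH, GCH1, PTS, SPR, QDPR, VKORC1L1 and POR. They were chosen by name from the gene symbol column of the deposited table, not by their values, and they are 10 of its 62754 genes. All 10 passed the filter on low values, which kept 17951 genes for testing. The cells were HPNE-hTERT, a non-malignant human pancreatic ductal line immortalized with telomerase, so every group shares that one line. One group of 3 libraries received FOLFIRINOX for 4 days, made of 5-fluorouracil at 10 µM, SN-38 (the active form of irinotecan) at 25 nM and oxaliplatin at 5 µM. The other 3 libraries came from cells given DMSO as vehicle and were also taken at day 4. The labels state that the drugs were used to induce senescence, and the series is about ferroptosis of senescent cells, so the comparison asks how the RNA of these defenses differed after the drugs.

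Ferroptosis is a form of cell death driven by iron-dependent peroxidation of membrane lipids. GPX4 reduces lipid peroxides with glutathione, whereas the genes described here supply small radical-trapping molecules. AIFM2 encodes FSP1, which uses NAD(P)H to reduce ubiquinone and vitamin K at membranes. COQ2 is needed to make ubiquinone, DHODH reduces it in the mitochondrial inner membrane, and the biopterin enzymes GCH1, PTS, SPR and QDPR make and recycle tetrahydrobiopterin. VKORC1L1 reduces vitamin K, NQO1 reduces quinones in the cytosol, and POR passes electrons from NADPH to cytochromes P450. POR stands apart in that it is known to promote lipid peroxidation, so it is not a defense in every setting.

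In FOLFIRINOX-treated cells the RNA of 3 of the 10 genes fell: NQO1 2.59-fold, COQ2 2.39-fold and GCH1 1.84-fold. These 3 falls stand beside a background of 12.2% of all 17951 tested genes called lower by limma, the same test. None of the 10 was called higher by limma at a Benjamini-Hochberg adjusted p under 0.05, where 11.4% of all genes were. At an unadjusted p under 0.05, 0 of the 10 were higher, against 18.2% of all genes. At that cutoff 5 of the 10 were lower, for which the share of all genes is not given here. The recovered reads gave 0 higher and 3 lower in edgeR (10.1% and 13.3% of all genes) and in DESeq2 (9.77% and 10.2%). In the authors' deposited table the counts were again 0 higher and 3 lower, against 9.5% and 9.89% of the genes with an adjusted p there. AIFM2, VKORC1L1 and QDPR were lower in every FOLFIRINOX library than in any vehicle library but did not pass the unpaired test. With the 3 called genes that made 6 of the 10 lower without overlap, against 19.6% of all genes, and 0 higher without overlap, against 19.9%. DHODH, SPR, PTS and POR had overlapping groups. The exact two-sided permutation test gave p = 0.1 for each of the 6, the smallest that 3 against 3 allows, and p = 0.2 for DHODH, 0.4 for SPR, 0.5 for PTS and 0.8 for POR. The median log2 difference of the 10 genes was −0.32, beside 0.02 over all genes tested. The libraries carry P numbers (P14, P15 and P19) that occur once in each group, and with these pairs as a block limma called 5 of the 10 lower and 1 higher, against 21.8% and 22.3% of all genes. The 3 further calls under the block were AIFM2, VKORC1L1 and PTS. The block in edgeR also gave 5 lower and 1 higher (23.4% and 19.8% of all genes), and the block with each library's GC trend removed gave 5 lower and 2 higher (27.4% and 24.0%), adding SPR. Within all 3 pairs, 7 of the 10 were lower in FOLFIRINOX and 2, SPR and PTS, were higher, against 31.5% and 33.7% of all genes.

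**Figure D1:**
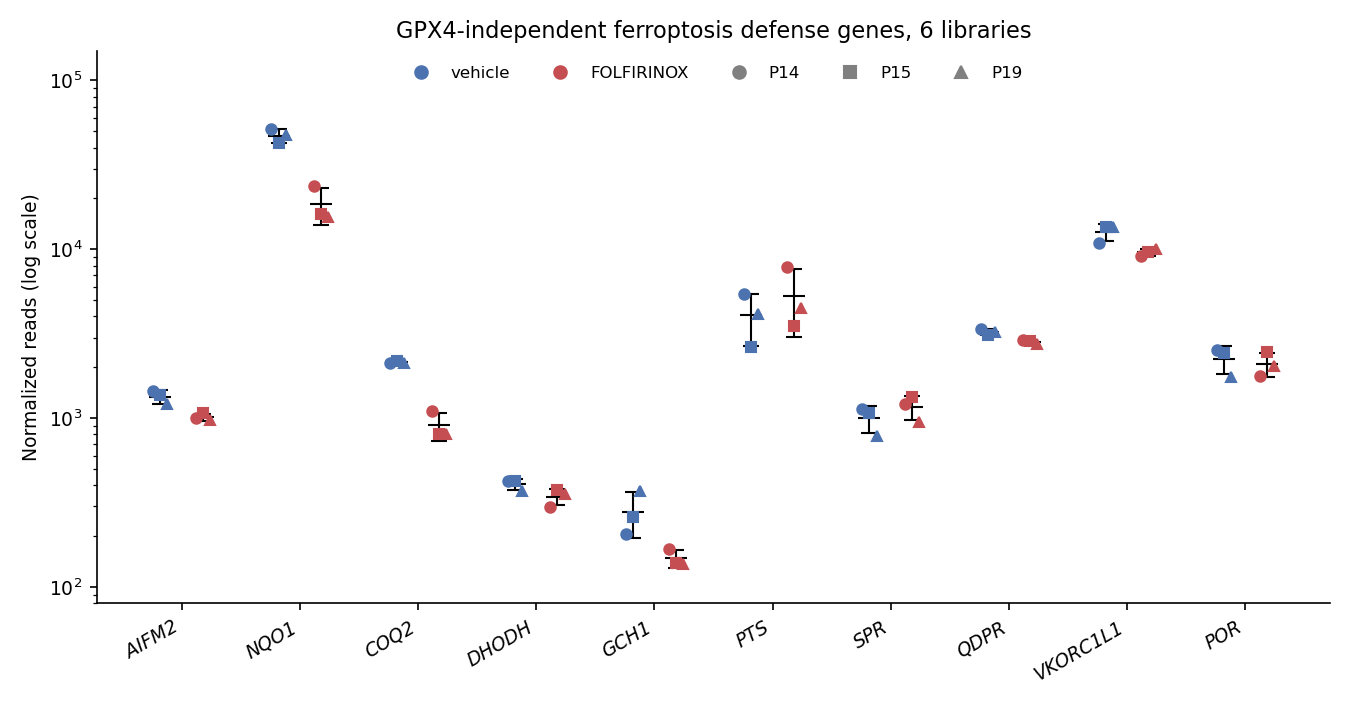
Normalized reads (log axis) of the 10 genes in each of the 6 libraries, with colour for the group and marker shape for the P number; black bars are the mean ± SD of 3 libraries. NQO1, the most abundant gene, and COQ2 show the widest gaps between groups, and PTS is highest in P14 in both groups.

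Total reads assigned to genes ran from 83981154 to 97762802 per library, and values are reads divided by the authors' size factors, called normalized reads below. CDKN1A, the p21 cell cycle inhibitor gene, rose by 3.22 on the log2 scale, and the proliferation gene MKI67 fell by 8.78, as a check of the treatment label. Over all genes 2047 were called higher and 2191 lower (48.3% of calls higher), and with each library scaled to a common total 2684 and 1698 (61.3% higher), a scaling that moves the median difference of all genes from 0.02 to 0.13. The defining ductal markers EPCAM and CFTR stayed under 10 normalized reads in every library and KRT19 reached at most 17.7, while KRT8, KRT18 and SOX9 were present. The summed level of the 10 ductal markers was 8966 to 9959 in FOLFIRINOX and 11979 to 14439.7 in vehicle. Summed mesenchymal markers (VIM, FN1 and others, 6 genes) were 2502338 to 3041596 in FOLFIRINOX and 3464102 to 5177414 in vehicle. Acinar, islet, endothelial and leukocyte lists each summed to at most 53.2, with PRSS1, CELA3A, INS and SST at 0. Mitochondrial ribosomal RNA took 2.74%, 1.18% and 1.23% of reads in FOLFIRINOX P14, P15 and P19, and 0.864%, 0.563% and 0.552% in vehicle. These shares and marker sums differed between the groups together with the genes below, and their part in the results was not tested. In such bulk RNA, fewer cells of a type and less RNA per cell cannot be told apart. Whether the 3 libraries of a group were separate cultures is not stated in the labels. The p-values therefore cover only the spread between libraries, which may be technical.

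Promoter sequence was looked up because NQO1 and AIFM2 are known targets of NRF2, the transcription factor that binds antioxidant response elements. RefSeq (GRCh38.p14) held promoters for 8 of the 10 genes, and GCH1 and POR were not among them. The response element core TGACNNNGC was searched on both strands in the 250 bases before each RefSeq start, and 10.9% of 34796 promoters hold it. It lay in 2 of the 8, with the first base of the match 22 bases before the RefSeq start in AIFM2 and 210 bases before it in VKORC1L1. The other promoters, NQO1 among them, held no match in this window. Sequence further upstream was not searched, so a response element of NQO1 beyond the window would not be seen here. The AIFM2 stretch lies inside the first exon that GENCODE 29 annotates, whose gene start is further upstream than that of RefSeq. The 30 bases around each match are printed below 5′ to 3′ on the gene's strand with the match in capitals, AIFM2 from chr10:70132828-70132857 (minus strand) and VKORC1L1 from chr7:65872854-65872883 (plus strand). CCAAT, a box bound by the factor NF-Y, was in 3 of the 8 (DHODH, PTS and COQ2) and in 32.0% of all promoters. COQ2 held it 2 times, and the 134 bases upstream of its annotated exons are printed as the example of a gene that fell, chr4:83284915-83285048 on the minus strand, with the CCAAT of that stretch in capitals. The GC box GGGCGG was in 7 of the 8 promoters, NQO1 among them, and in 42.6% of all promoters, and TATAAA in 0 of the 8 and 10.8% of all. These matches describe letters only.
AIFM2: cagcacgagtGCTGAGTCAcgccccgcccg
VKORC1L1: ccgagggttcGCCCAGTCAcccacagtggc
COQ2: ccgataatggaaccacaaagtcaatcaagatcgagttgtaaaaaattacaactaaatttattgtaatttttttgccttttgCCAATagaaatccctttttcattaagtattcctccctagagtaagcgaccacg

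NQO1, NAD(P)H quinone dehydrogenase 1, fell most of the 10. In GENCODE 29 on GRCh38 it lies at chr16:69706996-69726951 on the minus strand. Its levels in FOLFIRINOX P14, P15 and P19 were 23673, 16213 and 15566 normalized reads, and those in vehicle P14, P15 and P19 were 51918, 42435 and 47226. Every FOLFIRINOX library was below every vehicle library, and P14 was the highest of each group. The means were 18484 ± 4505 and 47193 ± 4742 (SD, n = 3), a log2 difference of −1.37 ± 0.19 SE (95% interval −1.78 to −0.96, limma adjusted p = 0.000411). Within P14, P15 and P19 the difference was −1.13, −1.39 and −1.60, so all 3 pairs pointed down. An annotated antisense gene, AC092115.2, overlaps 17.7% of the exonic length of NQO1, and its mean of 1.35 normalized reads is small beside that of NQO1. The 3 tested genes whose levels over the 6 libraries were most like those of NQO1 were ATP5F1A (Pearson r = 0.998), STC1 (0.997) and CTSL (0.997), given as a description of 6 libraries from 2 groups. As with NQO1, the P14 library of each group held the most ATP5F1A, a subunit gene of the mitochondrial ATP synthase, at 36402 in FOLFIRINOX and 57060.1 in vehicle.

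AIFM2 (FSP1; chr10:70098223-70132934, minus strand) makes the enzyme that reduces ubiquinone at the plasma membrane and on lipid droplets. FOLFIRINOX P14, P15 and P19 held 999.9, 1066 and 975 normalized reads of AIFM2, and vehicle held 1447, 1377 and 1205. The groups did not overlap, with all FOLFIRINOX libraries below the lowest vehicle library, vehicle P19. The log2 difference was −0.40 ± 0.16 (95% interval −0.76 to −0.04, limma adjusted p = 0.10), and with the block the adjusted p was 0.0175. Within pairs AIFM2 differed by −0.53, −0.37 and −0.30. GPX4, the peroxidase that AIFM2 acts beside, was at 13857, 13283 and 11384 in FOLFIRINOX and 15867, 10669.6 and 9718 in vehicle (0.12 ± 0.20, limma adjusted p = 0.709, and 0.24 with adjusted p = 0.0109 with the block and GC trends removed). The AIFM2 level minus the GPX4 level within a library, on the log2 scale, was −3.66 ± 0.12 in FOLFIRINOX and −3.14 ± 0.27 in vehicle (SD, n = 3). The groups of this within-library value did not overlap, and the exact two-sided permutation test gave p = 0.1, the smallest that 3 against 3 allows (0.2 adjusted over 4 such pairs).

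Genes that act on the AIFM2 protein, from the list of other GPX4-independent modifiers, showed small differences. TRIM69, a ubiquitin ligase reported to target FSP1, was lower without overlap, at 1010.1 ± 56.3 against 1332 ± 71.6 (−0.40 ± 0.16, limma adjusted p = 0.0952, 0.0192 with the block and 0.0107 with GC trends removed). NMT1, which attaches the myristoyl group that holds FSP1 at membranes, was 11993 ± 618 against 13941 ± 701 (−0.22 ± 0.14, limma adjusted p = 0.300). Of 9 measured genes in that list 2 fell and none was called higher by limma (0 at an unadjusted p under 0.05, 0 by edgeR, 0 by DESeq2, 1 higher and 4 lower with the block, and 0 and 4 with GC trends removed). Over all genes limma called 12.2% lower and 11.4% higher, and 21.8% lower and 22.3% higher with the block. At the unadjusted cutoff 18.2% of all genes were higher. The shares higher were 10.1% by edgeR and 9.77% by DESeq2. With GC trends removed 2407 of 17329 genes were higher and 2823 lower. The 2 that fell were MBOAT1, an acyltransferase that places monounsaturated fatty acids in phospholipids (375.8 ± 79.7 to 47.8 ± 4.31), and DHCR7, which turns 7-dehydrocholesterol into cholesterol (11886 ± 1695 to 4922 ± 729.7). DHCR7 lowers a sterol known to protect from ferroptosis, so it is not itself a defense.

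COQ2 (chr4:83261536-83284914, minus strand) encodes the transferase that joins the isoprenoid tail of ubiquinone to its ring, and it was the other strong fall. Levels were 1102, 806 and 807 normalized reads in FOLFIRINOX P14, P15 and P19, and 2135, 2169.8 and 2118 in vehicle. The 3 vehicle libraries lay within a factor of 1.02 of each other, and all FOLFIRINOX libraries were well below them. The means were 905 ± 170.4 and 2141 ± 26.5 (SD, n = 3), with a log2 difference of −1.26 ± 0.18 (95% interval −1.65 to −0.87, limma adjusted p = 0.000533). The differences within P14, P15 and P19 were −0.95, −1.43 and −1.39.

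Of the 15 measured genes of ubiquinone synthesis and transport, 3 fell and 1 rose in the unpaired fit (12.2% and 11.4% of all genes), with a median of −0.02. COQ8A, a kinase-like gene of the pathway, was not tested, with at most 10.8 normalized reads. Besides COQ2 the falls were PDSS1 and PDSS2, the subunits of the enzyme that builds the isoprenoid tail. PDSS1 was 552 ± 86.2 in FOLFIRINOX and 975 ± 144 in vehicle (−0.82 ± 0.19, limma adjusted p = 0.0114). PDSS2 was 2091 ± 159 and 3006 ± 299.9 (−0.52 ± 0.16, adjusted p = 0.0366 by limma), and this call was lost without FOLFIRINOX P14, P15 or P19, without vehicle P15 or P19 and without both P14 libraries (adjusted p 0.0593 to 0.145). PDSS2 was also not called with common-total scaling (adjusted p = 0.117, limma) or by limma without a trend (0.0693). COQ9, which binds the ring intermediates of later steps, was at 0.07 ± 0.16 (adjusted p = 0.805 by limma), and a difference between early and later steps was not tested. COQ10B, a ubiquinone-binding protein of mitochondria, rose from 3722 ± 640 to 6378 ± 1800.2 (0.75 ± 0.22, limma adjusted p = 0.0312). COQ10B was not called without FOLFIRINOX P14 or P19, without vehicle P14 or P15, or without both P14 libraries (adjusted p 0.0624 to 0.130), nor by limma without a trend (0.0914). With the block 3 genes of this list were higher and 4 lower (22.3% and 21.8% of all genes). With GC trends removed the counts were 2 and 4 (2407 and 2823 of 17329 genes). With both they were 4 and 5 (24.0% and 27.4% of all genes).

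**Figure D2:**
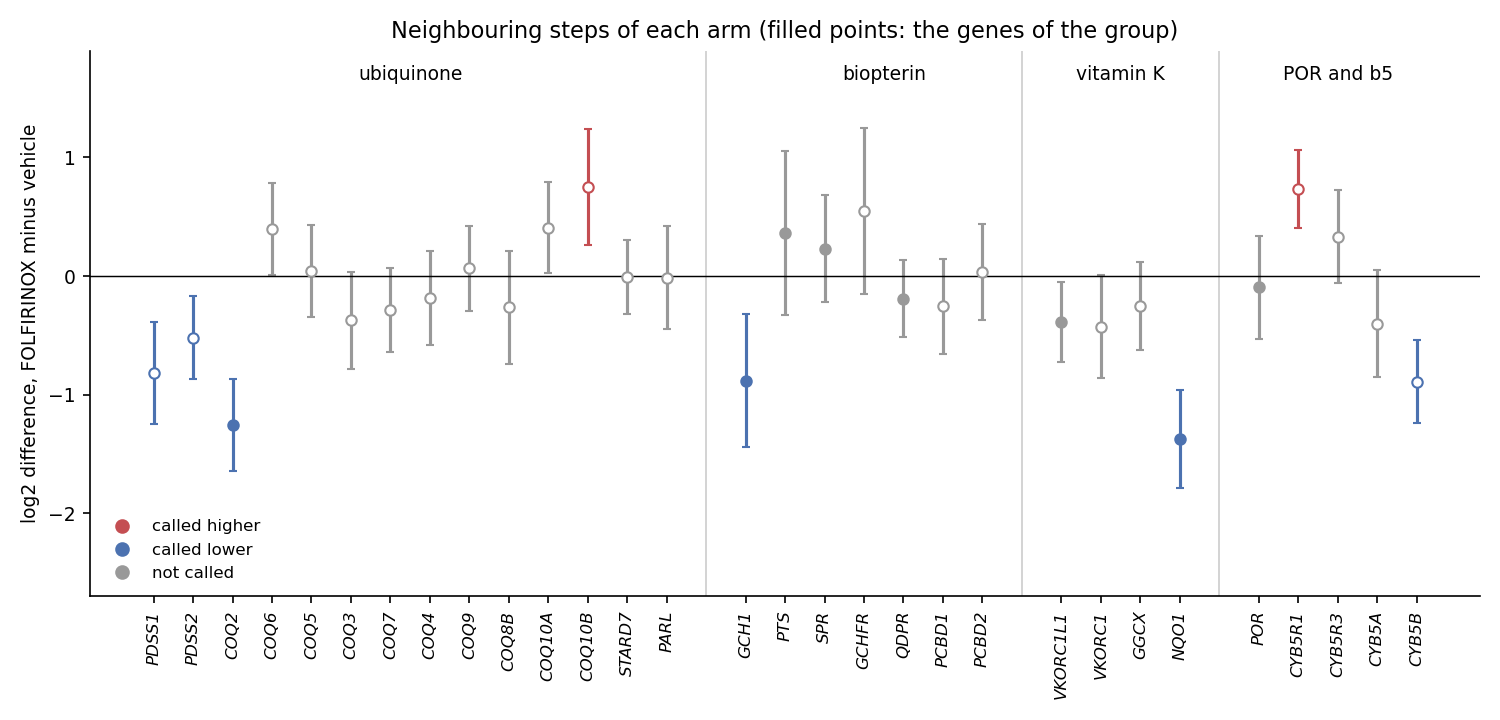
Log2 difference (FOLFIRINOX minus vehicle) with its 95% interval for the genes of the ubiquinone, biopterin, vitamin K and POR arms; filled points are the genes described here, and colours mark unpaired limma calls. In the ubiquinone arm PDSS1, PDSS2 and COQ2 are called lower and COQ10B higher, and in the biopterin arm GCH1 is called lower. The calls of PDSS2, COQ10B and GCH1 were lost when some libraries were left out, and a difference between steps was not tested.

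DHODH (chr16:72008588-72027664, plus strand) encodes the pyrimidine synthesis enzyme that passes electrons to ubiquinone. Its levels were 299, 374 and 354 normalized reads in FOLFIRINOX P14, P15 and P19, and 423, 425 and 369 in vehicle. The groups overlapped, since FOLFIRINOX P15 exceeded vehicle P19. The log2 difference of −0.25 ± 0.19 did not pass the test (95% interval −0.67 to 0.17, limma adjusted p = 0.375). CAD, which carries the earlier steps of the pathway, fell from 5174 ± 1202 to 3119 ± 564 (−0.72 ± 0.21, limma adjusted p = 0.0303). This call of CAD was lost without FOLFIRINOX P14 or P19, vehicle P14 or P15, or both P14 libraries (adjusted p 0.0887 to 0.201) with scaling to a common total (0.0585) and by limma without a trend (0.0860). UMPS, the step after DHODH, was 3122 ± 418 against 3233 ± 282 (−0.06 ± 0.16, limma adjusted p = 0.838). The DHODH level minus the UMPS level within a library was −3.18 ± 0.36 in FOLFIRINOX and −2.99 ± 0.17 in vehicle (exact two-sided permutation p = 0.5).

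Of 12 measured genes of pyrimidine synthesis and of mitochondrial enzymes that reduce ubiquinone, 2 fell and none was called higher by limma (12.2% and 11.4% of all genes). At an unadjusted p under 0.05 the counts were 0 higher (18.2% of all genes) and 3 lower. Both edgeR (10.1% and 13.3% of all genes) and DESeq2 (9.77% and 10.2%) called 0 higher and 2 lower. The block gave 0 higher and 4 lower (22.3% and 21.8% of all genes). SQOR, sulfide quinone oxidoreductase, was the other fall, from 3012 ± 119.9 to 2078 ± 98.5 (−0.54 ± 0.15, limma adjusted p = 0.0245). SQOR was not called without FOLFIRINOX P15 or P19, vehicle P14 or P15, or both P14 libraries (adjusted p 0.0609 to 0.105), nor with common-total scaling (0.0783), and the list held 1 called gene without FOLFIRINOX P14 or P15. It held 0 when vehicle P15, vehicle P14, FOLFIRINOX P19 or the pair of P14 libraries was left out, and with common-total scaling. ETFDH, which feeds electrons from fat oxidation to ubiquinone, was at 0.05 ± 0.17 (limma adjusted p = 0.852).

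GCH1 (chr14:54842008-54902852, minus strand), the GTP cyclohydrolase that begins tetrahydrobiopterin synthesis, fell in the unpaired fit. The FOLFIRINOX libraries P14, P15 and P19 held 169, 138 and 136 normalized reads, and the vehicle libraries 206, 261 and 372. All FOLFIRINOX libraries were below all vehicle libraries, but the vehicle libraries spread over a factor of 1.81. The log2 difference was −0.88 ± 0.25 (95% interval −1.44 to −0.32, limma adjusted p = 0.0285), and the differences within P14, P15 and P19 were −0.29, −0.92 and −1.44. GCH1 rested on 140 to 398 recovered reads per library. In each library 72.3% to 74.8% of the recovered counts below 50 were even, so independent fragments may be fewer than reads, here and for NOS1 below. Its call was lost without FOLFIRINOX P15 or P19 and without vehicle P15 or P19 (adjusted p 0.0611 to 0.0843).

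PTS (chr11:112226365-112269955, plus strand), the synthase of the next biopterin step, had a wide spread between P numbers. Levels were 7899.5, 3534 and 4509.7 normalized reads in FOLFIRINOX P14, P15 and P19, and 5418, 2626 and 4147 in vehicle. P14 was the highest and P15 the lowest of each group, a 2.24-fold span in FOLFIRINOX and 2.06-fold in vehicle, and the groups overlapped. The unpaired difference was 0.36 ± 0.31 (95% interval −0.33 to 1.05, limma adjusted p = 0.435). Each FOLFIRINOX library exceeded its pair, by 0.54, 0.43 and 0.12, and with the block the SE dropped to 0.12 and the limma adjusted p to 0.0142.

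SPR (chr2:72887360-72892158, plus strand), sepiapterin reductase of the last synthesis step, had 1206, 1335 and 953 normalized reads in FOLFIRINOX P14, P15 and P19, and 1134, 1066 and 786 in vehicle. P19 was the lowest of each group, and FOLFIRINOX P19 lay inside the range of the vehicle libraries. The difference was 0.23 ± 0.20 (95% interval −0.22 to 0.68, limma adjusted p = 0.450), positive within all 3 pairs at 0.09, 0.32 and 0.28. QDPR (chr4:17460261-17512234, minus strand), the reductase that recycles biopterin, had 2902, 2871 and 2746 in FOLFIRINOX and 3387, 3107 and 3233 in vehicle. The QDPR groups did not overlap, yet the difference was small, at −0.19 ± 0.15 (95% interval −0.51 to 0.13, limma adjusted p = 0.380). Of the 4 biopterin genes described here, GCH1 was the one called in the unpaired fit, and a difference between the steps was not tested.

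GCHFR, which encodes the feedback regulator that binds GTP cyclohydrolase, was low, at 94.5 ± 27.0 in FOLFIRINOX and 64.3 ± 19.1 in vehicle (0.55 ± 0.32, limma adjusted p = 0.241, and 0.0285 with the block and GC trends removed). The GCH1 level minus the GCHFR level within a library was 0.92, 0.15 and 0.93 on the log2 scale in FOLFIRINOX P14, P15 and P19, and 1.25, 2.19 and 2.86 in vehicle. These values did not overlap and differed by −1.43, with an exact two-sided permutation p = 0.1 (0.2 adjusted over 4 pairs), the smallest the design allows.

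Of 13 measured genes of biopterin synthesis, recycling and use, 3 fell and 1 rose in the unpaired fit (12.2% and 11.4% of all genes), with a median of 0.04. With the block 3 were lower and 3 higher (21.8% and 22.3% of all genes). With the block and GC trends removed 3 were lower and 5 higher (27.4% and 24.0%). AGMO, which uses tetrahydrobiopterin to cleave ether lipids, was 107 ± 34.7 against 209 ± 61.4 (−0.97 ± 0.31, limma adjusted p = 0.0422), a call lost without FOLFIRINOX P15 or P19, vehicle P14 or P19, or both P14 libraries (adjusted p 0.0695 to 0.136). AGMO was also not called with no filter (0.0650, limma adjusted p), common-total scaling (0.0505) or no trend (0.0820). The list's falls numbered 1 without FOLFIRINOX P15, FOLFIRINOX P19 or vehicle P19 and by limma without a trend. The gene that rose in the unpaired fit was NOS1, a nitric oxide synthase, with 0 reads in vehicle and 40 reads in FOLFIRINOX. NOS1 was 4.31-fold higher when each vehicle library was set to the floor of 3 reads, a bound that treats reads as independent. With NOS1 at that bound the list's median was also 0.04. NOS1 passed the filter on low values through the FOLFIRINOX libraries alone, and with the filter at 50 no gene of the list was called higher. PCBD1, a recycling dehydratase, was 907 ± 145 against 1078 ± 111 (−0.26 ± 0.18, limma adjusted p = 0.340).

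VKORC1L1 (chr7:65873166-65959563, plus strand) encodes the vitamin K epoxide reductase that is the paralog of the warfarin target VKORC1. Levels were 9168, 9625 and 10097 normalized reads in FOLFIRINOX P14, P15 and P19, and 10952, 13475 and 13478 in vehicle. All FOLFIRINOX libraries were below vehicle P14, the lowest of its group. The difference was −0.39 ± 0.15 (95% interval −0.72 to −0.05, limma adjusted p = 0.0921), and the adjusted p was 0.00469 with the block and 0.0184 with each library's GC trend removed. Within pairs VKORC1L1 differed by −0.26, −0.49 and −0.42.

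VKORC1 was also lower without overlap, at 676, 693 and 539 in FOLFIRINOX against 1010.1, 862 and 706 in vehicle (−0.43 ± 0.20, limma adjusted p = 0.146, and 0.0195 with the block). The VKORC1L1 level minus the VKORC1 level within a library was 3.93 ± 0.26 in FOLFIRINOX and 3.89 ± 0.41 in vehicle, a difference of 0.04 (exact two-sided permutation p = 1.0). GGCX, the carboxylase that uses reduced vitamin K, was at −0.25 ± 0.17 (limma adjusted p = 0.311, 0.0433 in edgeR with the block and 0.0179 with the block and GC trends removed).

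Of 10 measured genes of the vitamin K cycle and its carboxylated proteins, 2 fell and 1 rose (12.2% and 11.4% of all genes), with a median of −0.41. With the block 6 fell and 2 rose (21.8% and 22.3% of all genes). The falls in the unpaired fit were NQO1, which can reduce vitamin K, and PRRG4, a membrane protein with a carboxylated domain (74.4 ± 34.4 to 16.4 ± 2.40, limma adjusted p = 0.00765). PROS1, the anticoagulant protein S, rose from 2682 ± 414 to 5302 ± 1074 (0.97 ± 0.19, limma adjusted p = 0.00419). The list's falls numbered 4 without vehicle P19 or with GC trends removed, and 1 with the filter at 50.

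POR (chr7:75899200-75986855, plus strand), cytochrome P450 oxidoreductase, had 1779.7, 2464 and 2027 normalized reads in FOLFIRINOX P14, P15 and P19, and 2522, 2447 and 1759 in vehicle. The groups overlapped and the pairs disagreed, with differences of −0.50, 0.01 and 0.20 within P14, P15 and P19. The unpaired difference was −0.10 ± 0.20 (95% interval −0.53 to 0.34, limma adjusted p = 0.760), and its sign was positive with common-total scaling (0.014), with GC trends removed (0.029), without FOLFIRINOX P14 (0.013) and without both P14 libraries (0.11). POR shares 19 exonic bases with TMEM120A on the other strand, of its 6112.

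Of 17 measured POR partners and cytochrome b5 reductases, 4 rose and 2 fell in the unpaired fit (11.4% and 12.2% of all genes), with a median of −0.08. With the block 6 were higher and 4 lower (22.3% and 21.8% of all genes). With the block and GC trends removed 6 were higher and 6 lower (24.0% and 27.4%). CYB5R1, an NADH reductase reported to act with POR in lipid peroxidation, rose from 3219 ± 228 to 5353 ± 372 (0.73 ± 0.15, limma adjusted p = 0.00536). CYB5R3, its close relative, was higher without overlap, at 16967 ± 1065 against 13665 ± 2778 (0.33 ± 0.18, limma adjusted p = 0.207, 0.0224 with the block and 0.0137 with GC trends removed). CYP1B1, a P450 that metabolizes estrogens and polycyclic hydrocarbons, rose from 12317 ± 2230.4 to 39342 ± 3029 (1.69 ± 0.17, limma adjusted p = 3.89e-05).

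CYP26B1, which breaks down retinoic acid, rose from 2.72 ± 1.32 to 71.3 ± 21.8 normalized reads (limma adjusted p = 0.000104). Its vehicle libraries were near the floor, and it passed the filter on low values through the FOLFIRINOX libraries alone. CYP2U1, a fatty acid hydroxylase, rose from 2037 ± 408 to 3585 ± 451 (0.83 ± 0.19, limma adjusted p = 0.00962), a call that ended when the P14 libraries of both groups were left out (adjusted p = 0.0695). SQLE, the squalene epoxidase that receives electrons from POR, fell from 23369 ± 3995 to 11405 ± 2738 (−1.05 ± 0.20, limma adjusted p = 0.00372). CYB5B, the cytochrome b5 of the outer mitochondrial membrane, fell from 16318 ± 1881 to 8792 ± 870.4 (−0.89 ± 0.16, limma adjusted p = 0.00237). CYB5A, the microsomal cytochrome b5, was at −0.40 ± 0.20 (limma adjusted p = 0.184, and 0.00564 with the block). CYP51A1, the sterol demethylase, was at −0.33 ± 0.20 (adjusted p = 0.266 by limma, and 0.0140 with the block and GC trends removed).

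**Figure D3:**
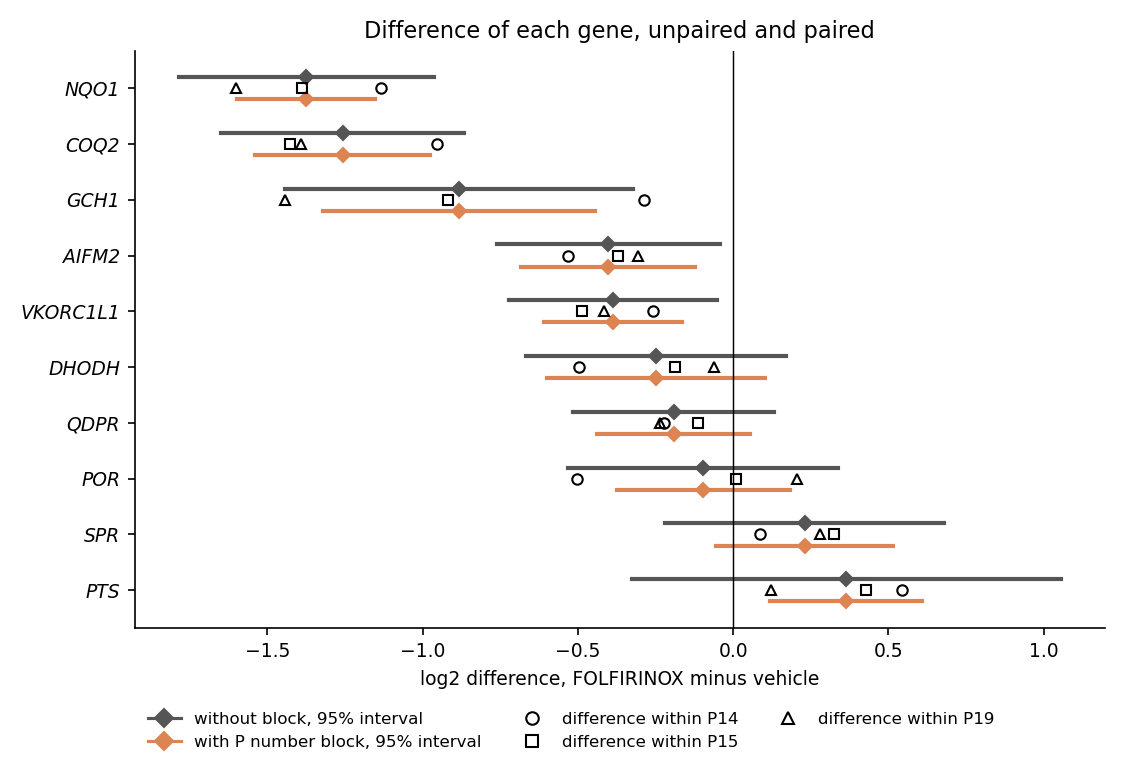
Log2 difference of each gene (FOLFIRINOX minus vehicle, diamonds) with 95% intervals from the unpaired fit (grey) and the fit with P number as a block (orange); open markers are the differences within each P number. The interval of PTS narrows most, from −0.33 to 1.05 to 0.12 to 0.61, and the 3 markers of POR lie on both sides of 0.

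NQO1 is widely read as a target of NRF2, so the other targets of that factor were counted. Of 28 measured NRF2 target genes 12 fell and 2 rose (12.2% and 11.4% of all genes), with a median of −0.54 beside 0.02 for all genes tested. Without NQO1 the counts were 11 and 2 of 27, with a median of −0.51. Over all 28 the block gave 17 lower and 3 higher (21.8% and 22.3% of all genes). The block with GC trends removed gave 18 lower and 4 higher (27.4% and 24.0%). The largest falls were PIR, an iron-binding nuclear protein, from 1165 ± 160.4 to 259 ± 59.4 (−2.18 ± 0.21, limma adjusted p = 3.62e-05), and CBR3, a carbonyl reductase, from 1993 ± 241 to 512 ± 82.2 (−1.96 ± 0.19, limma adjusted p = 2.97e-05). PGD, an NADPH-producing enzyme of the pentose phosphate pathway, fell from 26375 ± 311 to 10394 ± 812 (−1.35 ± 0.14, limma adjusted p = 6.26e-05). The list was not uniform. AKR1B10, an aldo-keto reductase, rose from 45.3 ± 25.3 to 455 ± 90.8 (3.44 ± 0.38, limma adjusted p = 9.37e-05). EPHX1, the microsomal epoxide hydrolase, rose from 1629 ± 197 to 2594 ± 300.6 (0.67 ± 0.17, limma adjusted p = 0.0160), a call lost without FOLFIRINOX P15 (adjusted p = 0.0684), which leaves 1 rise in the list.

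The regulators of that pathway were not called in the unpaired fit. NFE2L2, the gene of NRF2, was 12654 ± 1814 against 10034.7 ± 1755 (0.34 ± 0.18, limma adjusted p = 0.201, and 0.0128 with the block). KEAP1, the adaptor that targets NRF2 for degradation, was at −0.12 ± 0.19 (limma adjusted p = 0.691), with its sign positive when GC trends were removed (0.0084) and without both P14 libraries (0.10). SLC7A11, the cystine importer, was 3814 ± 1213 against 5794 ± 2331 (−0.58 ± 0.28, limma adjusted p = 0.169, 0.000153 with the block and 0.0114 with GC trends removed).

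**Figure D4:**
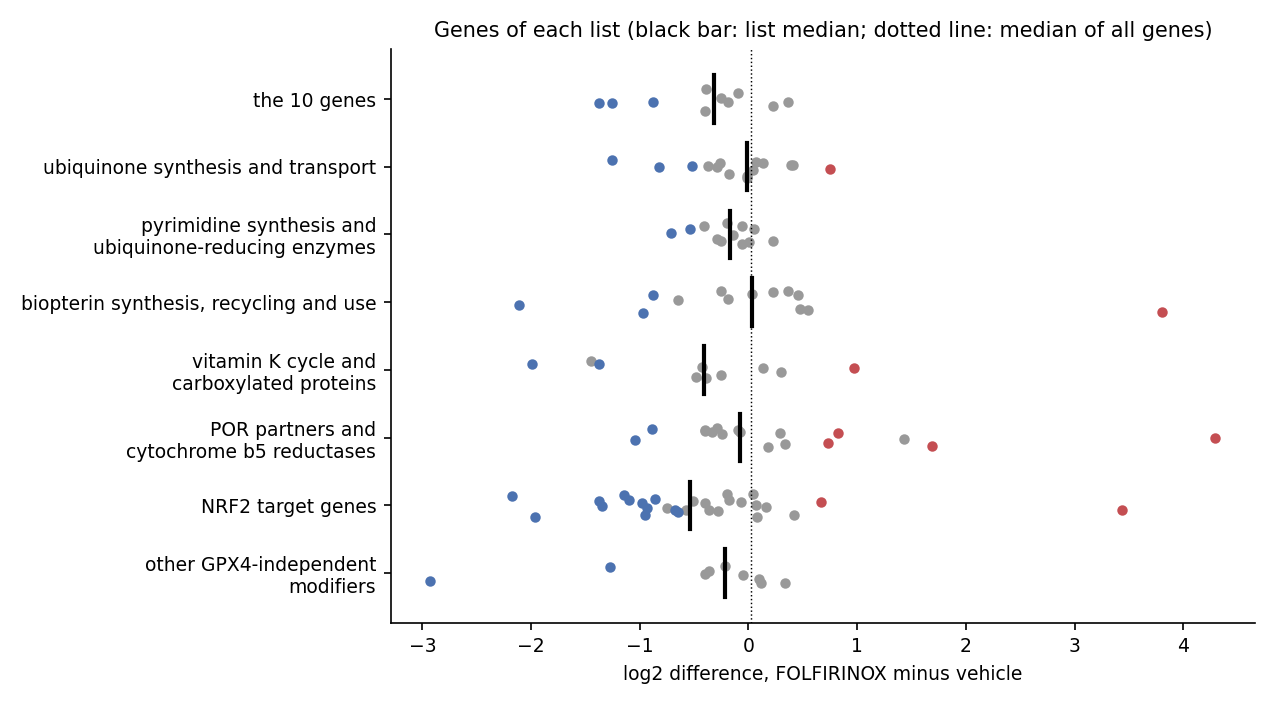
Log2 difference (FOLFIRINOX minus vehicle) of every measured gene in each list, with blue for genes called lower and red for genes called higher by the unpaired fit; vertical offsets are random. The median of the NRF2 targets is −0.54 and that of the biopterin list is 0.04; NOS1, whose vehicle libraries held no read, is drawn at its fitted value, which is not a bound.

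Across all 7 lists together with the 10 genes, 25 of 102 measured genes fell and 9 rose, against 12.2% and 11.4% of all genes. With the block 41 were lower and 18 higher, against 21.8% and 22.3% of all genes. Leaving the 10 genes out, 22 of 92 fell and 9 rose, with a median of −0.21. Some genes stand in more than one list and are counted once here.

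Levels between genes were compared in normalized reads per kilobase, with all exons that GENCODE 29 annotates for a gene merged into its length. The order depends on that length, which need not be that of the RNA present in these cells. In vehicle NQO1 stood highest at 14503 ± 1457, 6.89 times VKORC1L1 at 2106 ± 243. PTS (1298 ± 447), QDPR (1060 ± 45.9), COQ2 (772 ± 9.54) and SPR (673 ± 125) formed the middle, where PTS and QDPR overlapped, as did COQ2 and SPR. POR (367 ± 68.8), AIFM2 (262 ± 24.2), GCH1 (94.8 ± 28.7) and DHODH (58.6 ± 4.60) were lower, and these 4 did not overlap. AIFM2, GCH1 and DHODH were thus the 3 least abundant RNAs of the 10 per length in vehicle.

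After FOLFIRINOX NQO1 was still first, at 5680 ± 1385 per kilobase, 3.35 times PTS at 1698 ± 732. VKORC1L1 (1605 ± 77.4) overlapped PTS, and QDPR (928 ± 27.1) overlapped SPR (787 ± 131). COQ2, at 326 ± 61.4, overlapped POR at 342 ± 56.7, while in vehicle COQ2 overlapped SPR and lay above POR in every library. AIFM2 was at 197 ± 9.17. GCH1 at 50.01 ± 6.20 and DHODH at 49.5 ± 5.57 overlapped, whereas in vehicle every library had more GCH1 than DHODH per kilobase. That order rests on the merged lengths, 2951 bases for GCH1 and 6921 for DHODH. Before division by length the vehicle mean of DHODH (406 ± 31.8) was above that of GCH1 (280 ± 84.6).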

How the data were processed

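Polyadenylated RNA was sequenced, with library preparation by an NEB mRNA enrichment and a KAPA HyperPrep kit per the labels' protocols. The submitters' processing notes name FastQC 0.12.1, STAR 2.7.11b, featureCounts 2.0.6, DESeq2 and GRCh38. No annotation release or strand setting is given in the sources used here, and overlapping genes therefore cannot be told apart by strand. The authors deposited a normalized signal per gene and library, a log2 fold change and its error, a test score and p-values, per the file headers. Every value was a whole multiple, within 0.001, of 1 read's value in its column (100% of values), which recovered whole reads.

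The main test was limma 3.58.1 (R 4.3.3) on log2(value + 1), with a trend of variance on mean, a scale that understates the change of low genes, over genes at 10 or more in at least 3 libraries. Benjamini-Hochberg adjustment ran over all 17951 genes, with 0.05 as the threshold. Fold changes come from this scale. Error terms are SDs of 3 libraries or, after a log2 difference, its SE. Alternatives were pseudocounts of 0.5 and 8, no filter and one at 50, TMM and common-total scaling, no trend, edgeR 4.0.16 and DESeq2 1.42.0 on recovered reads, removal of each library's GC trend (GC known for 96.5% of tested genes), the block, and leaving libraries out. Single values were compared by the exact two-sided permutation test over libraries.

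Columns carry P numbers that no label gives, so each was assigned to a group only. Deviations from group means correlated at 0.257, 0.282 and 0.288 between libraries of one P number, above the 0.1 set for pairing, so P numbers were used as the replicate block. Other pairs of libraries were at −0.26 to −0.03. Deviations cancel over the libraries of a group, so positive values for the same P number force negative values elsewhere, which are no separate evidence of pairing. Within groups, libraries differed by more than sampling noise (chi-square per degree of freedom 76.0 to 231). On simulated data of 17624 genes the test recovered 3 of the 67 genes given a 1.5-fold difference, 30 of the 67 given 2-fold and 66 of the 66 given 4-fold, and it called 5 of 17424 genes left as they were.

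Named genes were the 10 genes, a fixed set of partner genes, up to 3 called genes for each list and direction (mean at least 50), the 3 genes most correlated with NQO1, and treatment checks. Some genes that this rule names, or that the lists count, are not reported here. The genes and lists were chosen with earlier results of these data known.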

Additional observations from a re-analysis of the deposited data

How the results depend on the processing

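NQO1 and COQ2 were called lower under every alternative run. With the replicate block on P number 1 member was higher and 5 lower, and 3995 and 3918 of all genes and 18 and 41 pathway list genes. The same block in edgeR, chosen after seeing the data, gave 1 and 5 members, 3560 and 4207 of all genes and 15 and 43 list genes. The block with GC trends removed gave 2 and 5 members, 4155 and 4741 of all genes and 21 and 48 list genes. AIFM2 was at −0.40 with the block (limma adjusted p = 0.0175), −0.44 with the block in edgeR (0.00991) and −0.30 with the block and GC removal (0.0136). VKORC1L1 was at −0.39 with the block (0.00469), −0.42 with the block in edgeR (0.00226), −0.51 with GC removal (0.0184) and −0.51 with both (1.96e-06). PTS was at 0.36, 0.33 and 0.23 in the 3 paired fits (0.0142, 0.0278 and 0.0217), and SPR was called with the block and GC removal alone (0.36, adjusted p = 0.00484). The block changed no other member's call.

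GCH1 at −0.88 was not called by limma without a trend (adjusted p = 0.0531), and leaving out 1 library gave −1.08 to −0.66 (0.0202 to 0.0843). Leaving out 1 library gave 0 to 0 members higher and 2 to 3 lower, and 1318 (without FOLFIRINOX P19) to 2218 of all genes higher and 1544 to 2204 lower. Without both P14 libraries 1162 and 1368 of all genes were called. POR changed sign with common-total scaling (0.014), GC removal (0.029, also with the block) and without both P14 libraries (0.11), and spanned −0.26 to 0.013 with 1 library left out. UMPS was at 0.055 with common-total scaling and −0.16 to 0.022 with 1 library left out. ETFDH was at −0.042 with GC removal, also with the block, −0.17 without both P14 libraries and −0.058 to 0.12 with 1 left out. GPX4 spanned −0.024 to 0.33, and KEAP1 −0.26 to 0.0026, with KEAP1 at 0.0084 under GC removal, also with the block, and 0.10 without both P14 libraries. The cause of these changes was not tested.

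The median SE of a log2 difference was 0.23, and in simulated data 3 of 67 genes with a 1.5-fold difference were called. The simulation gave every gene the same spread setting and left most genes unchanged, so its recovery need not hold for these data. The unpaired fit did call PDSS2 (1.44-fold lower) and SQOR (1.45-fold lower), calls that other settings lost. Smaller differences, such as those of DHODH, QDPR, SPR and POR, may still have gone undetected in the unpaired fit.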
